A study of Mus musculus with 703 samples.

Results

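The zinc finger genes with symbols from Zfp900 to Zfp999 were examined in gastrocnemius muscle of mice. They were chosen by name alone: every gene of the deposited table whose symbol is Zfp followed by a number of that range was a member, which gave 31 of 19088 genes. The rule itself used no measured value, but this range of names was chosen with earlier results of these data known. Animals came from 20 CC-RIX strains, each an F1 cross between a pair of Collaborative Cross (CC) lines. A CC line is an inbred mouse line that carries a mosaic of 8 founder genomes, and 19 lines were the parents here. One library of polyadenylated RNA was sequenced per animal, from 352 females and 351 males. The animals ate a diet with 10% fat (350 animals) or 44% fat (353 animals) from 6 weeks of age, and the labels add fiber to both diets. Some also received 5 mg/mL metformin, a drug given in type 2 diabetes, from 7 months of age, with 7 to 13 such animals per strain. No drug was given to 236 females and 233 males. Sex, diet and treatment made 8 groups, the smallest with 57 libraries. The labels name cohorts of 6 and 12 months without assigning animals to them. Since metformin began after the younger cohort had ended, the drug and age cannot be told apart in any treated against untreated comparison. No fit here holds a term for age, which the paper used as a covariate. The untreated animals can include both cohorts, so age may enter their strain, diet and sex differences. Its part was not tested.

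Proteins of this family bind DNA through tandem C2H2 zinc fingers. Each finger is a short fold in which a pair of cysteines and a pair of histidines hold 1 zinc ion, and the residues between them read a few bases of DNA. Many mouse members also carry a Krüppel-associated box (KRAB) near the amino terminus. The KRAB domain recruits the scaffold protein TRIM28 and, through it, the histone methyltransferase SETDB1 and other silencing factors, and many such proteins are known to repress transposable elements. Genes of this family typically lie in clusters of similar copies that differ between mouse lines. Targets of most of the 31 proteins are not known with confidence, so no individual function is given for them here.

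All but 1 of the 31 members were typed protein coding in the GENCODE M21 annotation of build GRCm38. The exception was Zfp939, a transcribed pseudogene. A script searched the 30 coding members' longest reading frames for fingers, counted as 2 to 4 residues between the cysteines, 12 to the first histidine and 3 to 5 between the histidines. It found fingers in 28 members, from 6 (Zfp956) to 18 (Zfp945) with a median of 11. Zfp935, annotated with a reading frame of 150 residues, had none, nor did Zfp957. A KRAB A-box signature was found in 27 members and was missing from the annotated frames of Zfp934, Zfp956 and Zfp957. The first finger of the 63-base form is shown for the 5 members whose levels differed most between strains, read from GENCODE M21 transcripts in the coding direction. Capitals mark the codons of the cysteines and histidines that hold the zinc ion.

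Zfp963 (chromosome 8): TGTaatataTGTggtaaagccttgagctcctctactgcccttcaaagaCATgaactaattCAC
Zfp958 (chromosome 8): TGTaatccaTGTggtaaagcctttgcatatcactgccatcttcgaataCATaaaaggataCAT
Zfp951 (chromosome 5): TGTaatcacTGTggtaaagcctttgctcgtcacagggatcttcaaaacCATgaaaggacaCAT
Zfp934 (chromosome 13): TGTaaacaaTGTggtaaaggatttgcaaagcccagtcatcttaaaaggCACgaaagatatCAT
Zfp943 (chromosome 17): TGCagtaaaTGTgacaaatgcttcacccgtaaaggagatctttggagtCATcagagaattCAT

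The members lay on 12 of the 20 chromosomes listed. Chromosome 17 held 10 of the 31, or 32.3% of the members against 4.58% of all genes of the table, and chromosome 8 held 5. Chromosomes 7 and 13 held 3 each, chromosomes 2 and 5 held 2 each, and chromosomes 4, 6, 9, 10, 14 and 19 held 1 each. A cluster was defined as a run of members on 1 chromosome whose starts followed each other within 1 Mb. By this definition 12 members formed 3 clusters. The largest, chr17:21567046-22867134, held Zfp948, Zfp942, Zfp943, Zfp947, Zfp944, Zfp946 and Zfp945 among 17 genes of the table. The second, chr8:69226343-69749970, held Zfp930, Zfp964 and Zfp963 among 10 genes, and the third, chr13:62454323-62520544, held Zfp935 and Zfp934 with no other gene of the table between them. The annotation file of the series gave the same start and end as GENCODE M21 for 22 of the 31 members. The chromosome and cluster counts follow the symbols of the deposited table. In GENCODE M21, 24 further genes of the table carry a symbol of this range. Of these, 10 lie on chromosome 4, 7 on chromosome 2, 4 on chromosome 7 and 3 on chromosome 17. Those 3 lie inside the largest cluster, and the 24 are described at the end.

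Zfp942 and Zfp943 stood head to head, transcribed away from each other. Their RefSeq starts on GRCm38.p6 were 94 bases apart, counted between the starts. RefSeq start-site windows, from 250 bases before to 50 after a start, were given for 28 of the 31 members. Windows of Zfp942, Zfp943, Zfp944, Zfp946, Zfp947 and, outside the cluster, Zfp933 held the word CACGTGAC on 1 or both strands. The windows of Zfp942 and Zfp943 overlap and hold the same copy of the word, so they are not separate occurrences. This word was chosen after the cluster's windows had been read, so its count is a description. It was in 2.24% of the 32817 windows of all genes. Over 225 aligned bases before their starts, Zfp942 and Zfp944 were 99.6% identical. The stretches around the word that lie in no annotated exon are shown 5′ to 3′ on the strand of the gene named, with the word in capitals. In the Zfp943 and Zfp944 stretches, the bases gt before the capitals complete the word on the other strand as well. The first is the stretch between Zfp942 and Zfp943, and the Zfp947 word lay inside an annotated exon and is not shown.

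Zfp943, chr17:21962465-21962551, plus strand: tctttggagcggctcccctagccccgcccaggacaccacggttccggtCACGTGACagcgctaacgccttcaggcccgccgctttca
Zfp944, chr17:22361401-22361452, minus strand: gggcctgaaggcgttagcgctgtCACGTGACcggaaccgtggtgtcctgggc
Zfp946, chr17:22424132-22424201, plus strand: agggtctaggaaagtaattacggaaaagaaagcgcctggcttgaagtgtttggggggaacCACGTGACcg
Zfp933, chr4:147848463-147848590, minus strand: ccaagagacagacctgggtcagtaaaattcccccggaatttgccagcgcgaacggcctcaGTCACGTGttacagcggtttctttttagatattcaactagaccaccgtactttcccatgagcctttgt

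Library depth ran from 27.4M to 96.1M assigned reads with a median of 47.9M. The 8 muscle fibre markers examined summed to 72345 to 154159 CPM in every library, CPM being the count scaled to a common library size (by the total for marker lists, and with TMM factors for single genes). Libraries carried sequencing identifiers in a lower range (544 libraries) or an upper range (159 libraries), which entered every fit as a term. In 15 libraries the sex transcripts, and in 4 the strain pattern, went against the label, and 99 libraries held summed liver transcripts at over 10 times the median of all libraries. Each test of strain, diet, sex and metformin was run again without them. In bulk tissue, fewer cells of a type and less RNA per cell cannot be told apart.

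The members were expressed at low levels. Mean levels in untreated animals ran from 0.091 CPM (Zfp957) to 16.1 CPM (Zfp943), and 27 of the 31 averaged at least 1 CPM. The estimated count was above 0 in every library for 28 members, and the other 3 were Zfp934, Zfp951 and Zfp957. Zfp957 did not pass the low-count filter in untreated animals (0.091 ± 0.087 CPM, SD over the 236 females and 233 males), so 30 members were tested there, while all 31 were tested in the fits over all animals. Per kilobase of annotated exon, Zfp943 was again highest, at 3.35 CPM per kb. Zfp958 followed at 2.67, Zfp963 at 2.60, Zfp949 at 2.43 and Zfp956 at 2.31 CPM per kb. The lowest members on that scale were Zfp934 at 0.111 and Zfp957 at 0.028 CPM per kb. Levels were therefore not ordered by cluster: Zfp947, in the same cluster as Zfp943, stood at 0.302 CPM per kb.

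Some members share sequence with other genes, and their reads had to be divided by the authors' estimation step. Stretches of 100 bases, the read length, were compared across all annotated transcripts. Of the 31 members, 13 shared no stretch with another gene, 13 shared up to 10% of them, and 5 shared more. Zfp935 shared 99.3%, most of it with an annotated gene at the same place, and its values are uncertain. Zfp960 shared 68.3% with Zfp97, a gene elsewhere. Zfp963 shared 36.2%, almost all with the overlapping gene model Gm20422, which itself was listed at a mean of 0.193 CPM. Zfp932 shared 18.5%, mainly with Gm15446, and Zfp937 shared 10.9% with Zfp442. Values of these 5 depend on how shared reads were split. Zfp934 lay just under the 10% limit: it shared 9.67% with 32 other genes, the largest part (5.25%) with Zfp808, a gene elsewhere. Zfp808 averaged 0.574 CPM in untreated animals, and its strain means had a Pearson's r of 0.70 with those of Zfp934. How the split of shared reads bears on Zfp934 was not tested.

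The first comparison asked how far the strains differed. In the untreated animals, 10 to 26 per strain, strain passed the test for 29 of the 30 members tested (edgeR quasi-likelihood test, Benjamini-Hochberg adjusted p under 0.05), Zfp952 being the exception. Of all 16384 genes tested, 93.2% passed, so the count of members is near the background. The share of variance of log2 CPM between strains (omega-squared, with sex, diet and identifier range in the model) had a median of 18.7% over the members, with quartiles of 9.53% and 39.1%. The median was 15.4% over all genes tested, with quartiles of 7.83% and 28.9%, and 14.04% over the 284 other tested genes named Zfp and a number. With the genes that carry such a symbol in GENCODE M21 alone added, the median of the members rose to 27.8%. A share over 50% was found for 5 members, or 16.7% of those tested, against 9.25% of all genes. Among the 27 members with a mean of at least 1 CPM it was found for 3, or 11.1%. The value for all genes was not limited in this way. For comparison, the median shares of the members for sex, diet and identifier range were 0.450%, 0.257% and 0.143%. Each share is what a term adds to the other terms. All libraries of 7 strains lay in 1 identifier range, so variance common to strain and range enters neither share.

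**Figure D1:**
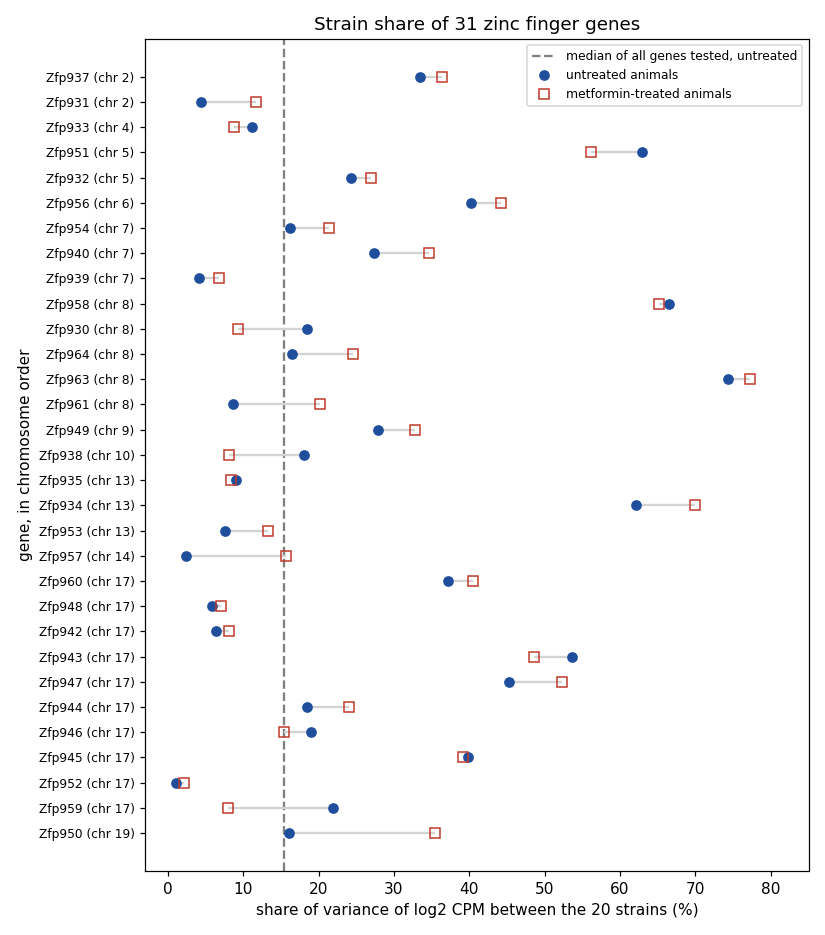
Share of variance of log2 CPM between the 20 strains (percent, horizontal axis) for each of the 31 genes in chromosome order, in untreated animals (filled circles) and metformin-treated animals (open squares); the dashed line is the median of all genes tested in untreated animals. Zfp963, Zfp958, Zfp951, Zfp934 and Zfp943 lie above 50% in untreated animals, and Zfp952 lies below 5% in both sets.

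Zfp963 (chr8:69741639-69749970, minus strand) had the largest share, 74.4% (adjusted p = 1.47e-121). Strain means ran from 2.96 ± 0.404 CPM (SD, n = 10) in (CC009/UncJ x CC013/GeniUncJ)F1, through a median of 6.21, to 8.80 ± 1.55 CPM (n = 24) in (CC019/TauUncJ x CC075/UncJ)F1. The lowest strain reached 3.44 CPM in its highest animal and the highest strain fell to 6.17 CPM in its lowest, so these strains did not overlap. The next lowest strain had a mean of 3.89 CPM, a gap of 0.41 on the log2 scale.

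Zfp958 (chr8:4613167-4630231, plus strand), on the same chromosome but in no cluster, had a share of 66.5% (adjusted p = 3.05e-99). Its strain means fell on either side of a step: 11 strains had means up to 5.33 CPM and 9 had means from 6.98 CPM. The step took up 40.1% of the whole range on the log2 scale. Animals of the lower strains had 3.11, 5.14 and 7.65 CPM (lowest, median, highest, n = 254) and those of the higher strains 4.52, 7.54 and 11.5 CPM, so animals overlapped while strain means did not. All 5 strains with the parent CC002/UncJ were on the higher side, and (CC030/GeniUncJ x CC002/UncJ)F1 was highest at 9.28 CPM. The other 4 higher strains did not have that parent, so no single line was shared by all 9. Each of those 4 had CC043/GeniUncJ or CC060/UncJ as a parent, and no strain with either line was on the lower side.

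Zfp951 (chr5:104813169-104860070, minus strand) had a share of 62.8% (adjusted p = 2.08e-77) at a low level. Strain means were lowest, at 0.185 ± 0.112 CPM (n = 24), in (CC043/GeniUncJ x CC011/UncJ)F1 and rose to 1.28 ± 0.301 CPM (n = 10) in (CC009/UncJ x CC013/GeniUncJ)F1. The highest animal of the first strain stood at 0.454 CPM and the lowest animal of the second at 0.718 CPM. Low means, up to 0.227 CPM, were found in 3 strains. Both of the lowest had the parent CC011/UncJ, and the third, (CC004/TauUncJ x CC019/TauUncJ)F1, did not. The remaining strain with CC011/UncJ, (CC011/UncJ x CC005/TauUncJ)F1, was not among these low strains.

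Zfp934 (chr13:62517500-62520544, minus strand) had a share of 62.2% (adjusted p = 7.04e-94) and also a step. Means of 15 strains were at most 0.558 CPM, and those of 5 strains were at least 1.19 CPM. The step spanned 1.01 on the log2 scale, or 38.6% of the range. The 5 higher strains were all 3 with the parent CC075/UncJ, at 1.19, 1.24 and 1.31 CPM, together with (CC024/GeniUncJ x CC002/UncJ)F1 at 1.57 and (CC030/GeniUncJ x CC002/UncJ)F1 at 1.63 CPM. Animals of the lower strains had 0, 0.366 and 1.09 CPM (lowest, median, highest), and those of the higher strains 0.529, 1.36 and 3.06 CPM. Zfp935, its neighbour, had a share of 8.98% and no such step.

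**Figure D2:**
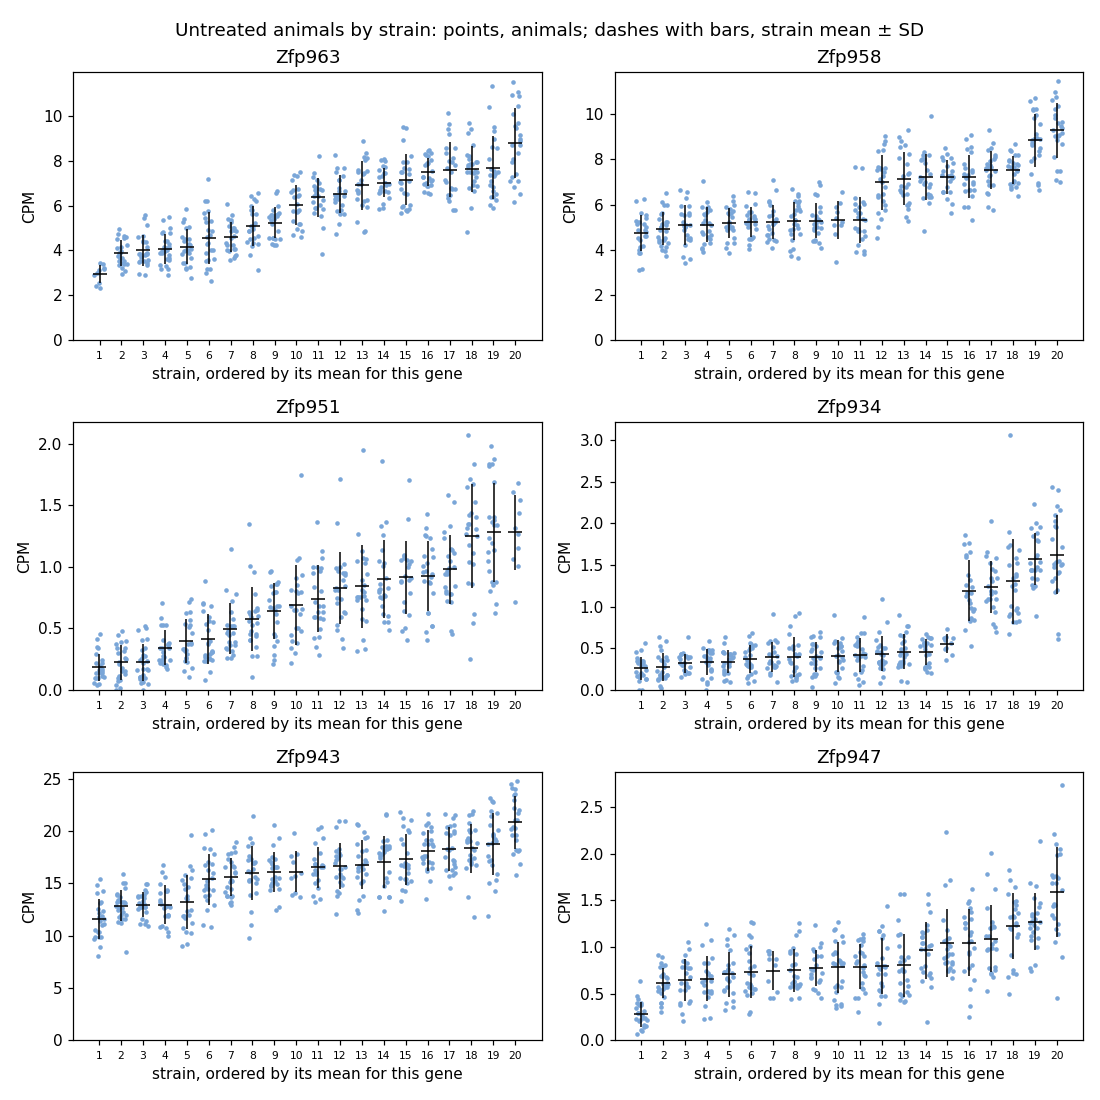
Level in CPM (vertical axis, from 0) of the 6 members with the largest strain share in untreated animals, 1 panel a gene; points are animals, dashes with bars are strain means ± SD, and the 20 strains are ordered by their mean within each panel, so a strain's position differs between panels. Zfp934 has 5 strains above the other 15, Zfp958 has 9 above the other 11, Zfp951 has 3 strains at up to 0.227 CPM below the rest, and Zfp947 and Zfp963 each have 1 strain below the rest.

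Zfp943 (chr17:21962552-22071168, plus strand), the most abundant member, had a share of 53.6% (adjusted p = 1.03e-66). Strain means ran from 11.6 ± 1.89 CPM in (CC051/TauUncJ x CC019/TauUncJ)F1 to 20.8 ± 2.56 CPM in (CC043/GeniUncJ x CC011/UncJ)F1, with 24 animals each. The highest animal of the first stood at 15.4 CPM and the lowest of the second at 15.8 CPM. Zfp942, which starts 94 bases away on the other strand, had strain means from 6.34 to 7.92 CPM and a share of 6.43% (adjusted p = 0.000137).

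Zfp947 (chr17:22144359-22166190, minus strand) had a share of 45.3% (adjusted p = 4.39e-51). One strain, (CC042/GeniUncJ x CC040/TauUncJ)F1, had a mean of 0.279 ± 0.135 CPM (n = 24), and the next lowest stood at 0.617 CPM, a gap of 1.09 on the log2 scale. The highest mean was 1.59 ± 0.483 CPM (n = 24) in (CC019/TauUncJ x CC075/UncJ)F1. In the same low strain Zfp945, whose start lies 702 kb away, had its highest mean, 9.37 CPM, against 5.07 CPM in its lowest strain, and a share of 39.8% (adjusted p = 2.84e-44). Zfp956 on chromosome 6 had a share of 40.3% (adjusted p = 1.02e-47), with strain means from 4.85 to 10.2 CPM. Zfp960, most of whose stretches also occur in Zfp97, had a share of 37.2% (adjusted p = 1.34e-39) with means from 3.12 to 5.61 CPM. Its highest means were in both strains with the parent CC060/UncJ. Zfp937 had a share of 33.4% (adjusted p = 4.71e-35), with means from 0.658 to 2.22 CPM.

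At the other end, Zfp952 had a share of 1.09% (adjusted p = 0.146), with strain means from 4.24 to 5.09 CPM. Zfp939, the pseudogene, had 4.11% (adjusted p = 0.00332) and means from 1.79 to 2.48 CPM. Zfp931 had 4.37% (adjusted p = 0.00403) and means from 3.44 to 4.50 CPM. Members in clusters and members outside clusters had like medians, 18.7% over 12 and 19.9% over 18 tested genes, and neither was set against the other by a test. Among the 5 members that share over 10% of their stretches the median was 33.4%, and among the 25 others tested it was 18.4%.

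The treated animals, 7 to 13 per strain, were used to see whether the strain pattern recurred in animals not used above. The strain means of a member in untreated and in treated animals had a median Pearson's r of 0.79 over the 30 tested members and 20 strains, against 0.74 over all genes tested. It was over 0.9 for 9 members, among them Zfp963 (0.97), Zfp958 (0.96), Zfp934 (0.96), Zfp947 (0.96), Zfp937 (0.96) and Zfp951 (0.95), and it was lowest for Zfp952 (0.16). The strain with the highest mean was the same in both sets for Zfp963, Zfp958, Zfp951, Zfp934, Zfp943, Zfp947, Zfp956, Zfp945, Zfp960 and Zfp937. Between females and males of the untreated animals the median r was 0.74 for members and 0.62 for all genes. The strain shares in treated animals of Zfp950 (35.4%, against 16.03% in untreated) and Zfp959 (7.93%, against 21.8%) moved most among the tested members. Within the identifier ranges, which the labels do not describe as batches, the median strain share of members was 20.1% among lower-range and 22.8% among upper-range libraries. Strain passed for 28 members in the former and 18 in the latter, where 13 strains and 69 untreated animals remained.

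Neighbouring members were then compared by their strain means. Points of these correlations are 20 strains, which share parental lines, and the same animals gave both genes, so r is a description. The 24 pairs with starts within 1 Mb had a median r of 0.35, with quartiles of 0.11 and 0.57. Most of these pairs lie within the chromosome 17 cluster of 7 members. The same genes recur in them, so this median rests largely on 1 locus. All 217453 pairs of tested genes within 1 Mb had a median of 0.02, with quartiles of -0.21 and 0.26. The 39 member pairs farther apart on 1 chromosome had a median of 0.02, and the 372 pairs on different chromosomes 0.01. For the 6 pairs within 0.2 Mb, the median was 0.60 and none was below 0.

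The pair most alike was Zfp964 and Zfp963, with r = 0.79 (0.65 in treated animals). Both were lowest in (CC009/UncJ x CC013/GeniUncJ)F1, where Zfp964 had a mean of 0.784 CPM. Zfp947 and Zfp944 followed with 0.77 (0.76 in treated animals), and the head-to-head pair Zfp942 and Zfp943 with 0.76 (0.83 in treated animals). Zfp942 and Zfp944, whose upstream stretches are almost identical, had 0.69. They also share 100-base transcript stretches, 1.24% of those of Zfp942 and 2.38% of those of Zfp944. Whether either likeness bears on their r was not tested. Clustered members did not all vary together. Zfp945, at the end of the chromosome 17 cluster, had r below 0 with Zfp942, Zfp943, Zfp947, Zfp944 and Zfp948, and its r of -0.67 with Zfp947 was the lowest of all member pairs (-0.62 in treated animals). With Zfp946, the member next to it, its r was 0.18. The strain (CC042/GeniUncJ x CC040/TauUncJ)F1 stood apart as the highest for Zfp945 (9.37 CPM) and the lowest for Zfp947 (0.279 CPM). The r of these genes without that strain was not computed.

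Animal-to-animal variation within strains, after sex, diet, strain and identifier range were fitted, gave another picture. Over the untreated animals Zfp942 and Zfp943 had r = 0.61, and Zfp942 and Zfp944 had 0.52. Zfp945, whose strain r was -0.26 with Zfp943 and -0.18 with Zfp942, had 0.46 and 0.43 with them at this level. The chromosome 8 members did the reverse: Zfp964 and Zfp963 had r = -0.03 within strains. The median over all 435 pairs of tested members was 0.09, against -0.003 over pairs drawn from every 16th gene tested. Differences in cell content and RNA quality between animals enter these values, and their part was not tested.

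**Figure D3:**
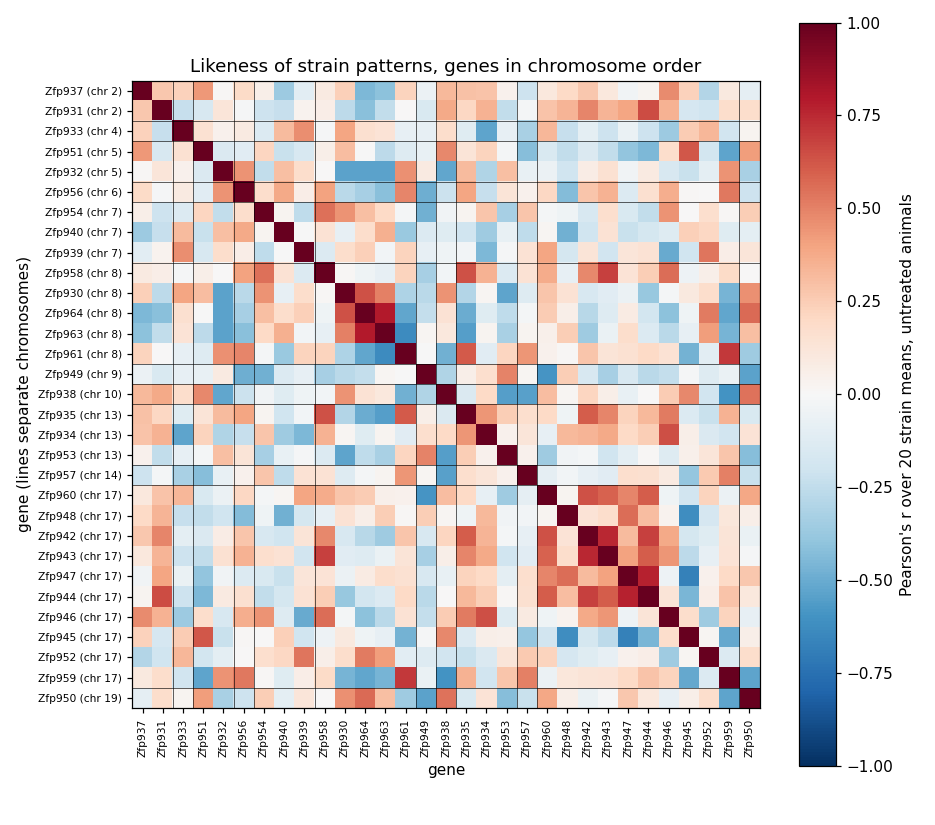
Pearson's r of strain means over 20 strains, untreated animals, for each pair of the 31 genes, ordered by chromosome and start on both axes; black lines separate chromosomes, and the colour scale runs from -1 (blue) to 1 (red). The block from Zfp942 to Zfp944 on chromosome 17 and that from Zfp930 to Zfp963 on chromosome 8 are red, and Zfp945 is blue against Zfp947.

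The diet comparison set 235 untreated animals on 44% fat against the other untreated animals, on 10% fat. Expression of 4 of the 30 members differed, all lower on 44% fat, which is 13.3% of them, while 18.4% of all genes passed (1564 higher and 1445 lower). Zfp937, Zfp930, Zfp963 and Zfp961 were the 4, and 3 of them lie on chromosome 8. Differences were small: the largest was 8.81% of the level. Fold changes were below 0 for 26 of the 30 members, with a median of -0.04 on the log2 scale, against 8510 of 16384 genes and a median of -0.002. All members were measured in the same animals and vary together in part. Their signs are therefore not independent, and the lean below 0 was not tested. This lean was weaker in the metformin-treated animals, where more of the members had fold changes above 0, though most were still below 0.

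Zfp937 had 0.356, 1.13 and 2.87 CPM (lowest, median, highest) on 10% fat and 0.085, 1.12 and 2.63 CPM on 44% fat. These ranges overlapped almost wholly. After the other terms were fitted, it fell by 0.13 on the log2 scale (SE 0.04, edgeR adjusted p = 0.00478), and was lower on 44% fat in 17 of 20 strains. Zfp930 averaged 2.64 ± 0.589 CPM on 10% fat and 2.47 ± 0.572 CPM on 44% fat. It fell by 0.09 on the log2 scale (SE 0.03, edgeR adjusted p = 0.0095), in 16 of 20 strains. Zfp963 had 2.41, 6.29 and 11.5 CPM on 10% fat and 2.32, 5.79 and 10.5 CPM on 44% fat, and fell by 0.06 (SE 0.02, edgeR adjusted p = 0.0162) in 17 of 20 strains. Zfp961 averaged 2.13 ± 0.471 and 2.01 ± 0.555 CPM, and fell by 0.08 (SE 0.03, edgeR adjusted p = 0.0477) in 16 of 20 strains. Groups overlapped for all 4, and the strain means of each spanned a wider range than its diet difference.

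The 4 calls did not all hold within identifier ranges, and Zfp961 (-0.08, edgeR adjusted p = 0.099) did not pass once the libraries high in liver transcripts were left out. In the lower range Zfp937 (log2 -0.14, edgeR adjusted p = 0.00811) and Zfp961 (-0.09, adjusted p = 0.0393) passed, while Zfp930 (-0.07, adjusted p = 0.135) and Zfp963 (-0.05, adjusted p = 0.139) did not. In the upper range no member passed, although 8 had an unadjusted p under 0.05, and Zfp930 had -0.26 (adjusted p = 0.0597). In the treated animals, which were not used above, the diet difference was -0.04 for Zfp937, -0.03 for Zfp930, -0.03 for Zfp963 and -0.004 for Zfp961, and none of these passed (edgeR adjusted p of 0.625 to 0.971). There 1 other member, Zfp952, passed. The summed adipocyte markers had a median of 143 CPM on 10% fat and 161 CPM on 44% fat over all animals, and the fibroblast markers 550 and 497 CPM. With the levels of the marker lists added to the fit, 6 members passed, all lower on 44% fat, and Zfp963 (-0.04, adjusted p = 0.196) was no longer among them.

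**Figure D4:**
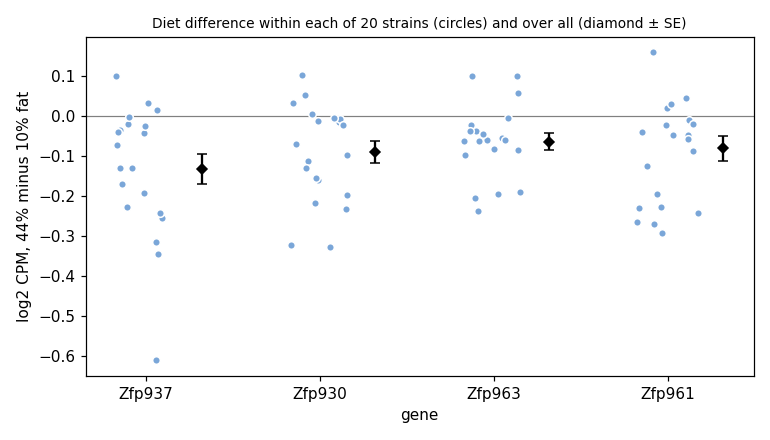
Difference in log2 CPM between 44% and 10% fat (vertical axis) within each of the 20 strains of untreated animals (circles, spread sideways at random) and over all strains from the edgeR fit (diamond ± SE) for the 4 members called for diet. Most circles lie below 0, 17 of 20 for Zfp937 and Zfp963 and 16 of 20 for Zfp930 and Zfp961, and the strains span wider than the SE.

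Metformin-treated animals were compared with untreated animals in 1 fit over all libraries. Of the 31 members, 3 passed (9.68%, against 16.2% of the 17740 genes tested): Zfp934 was lower, and Zfp949 and Zfp952 were higher. Zfp934 had 0, 0.453 and 3.04 CPM (lowest, median, highest) in untreated and 0.030, 0.403 and 2.48 CPM in treated animals. It fell by 0.19 on the log2 scale (SE 0.06, edgeR adjusted p = 0.00703), and was lower in 16 of 20 strains. Zfp949 averaged 9.96 ± 1.96 CPM in untreated and 10.3 ± 1.94 CPM in treated animals, a difference of 0.06 on the log2 scale (SE 0.02, edgeR adjusted p = 0.0249) seen in 14 of 20 strains. Zfp952, the member that varied least between strains, averaged 4.66 ± 0.690 and 4.85 ± 0.700 CPM, a difference of 0.05 (SE 0.02, edgeR adjusted p = 0.0268) seen in 16 of 20 strains. The ranges of the groups overlapped for all 3. The drug and age cannot be told apart in these differences.

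In the lower identifier range all 3 passed, with log2 differences of -0.22, 0.08 and 0.06, and 5 members passed in all. In the upper range none passed, with 2 at an unadjusted p under 0.05, and the values were -0.07, 0.002 and 0.04. When the marker levels were added to the fit, Zfp934 alone still passed (-0.20, edgeR adjusted p = 0.0115), while Zfp949 (0.04, adjusted p = 0.282) and Zfp952 (0.05, adjusted p = 0.0942) did not. The fibroblast markers had a median sum of 551 CPM in untreated and 474 CPM in treated animals, and the Schwann cell markers 47.3 and 52.6 CPM.

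Sex differed for more of the members than diet or metformin, though for fewer than among all genes. Of 30 members, 13 passed (43.3%, against 65.2% of all genes): 7 were higher in the 233 males and 6 in the 236 females. With RLE scaling in the same test the split was 6 and 7, and with DESeq2, which changes the test as well, 6 and 8. The summed adipocyte markers had a median of 167 CPM in females and 134 CPM in males over all animals, and the Schwann cell markers 52.2 and 46.7 CPM. With the marker levels in the fit 13 members passed, 6 higher and 7 lower in males. The largest difference was that of Zfp948, which had 1.13, 2.26 and 4.55 CPM (lowest, median, highest) in females and 0.570, 1.99 and 3.76 CPM in males. It was lower in males by 14.9% (log2 -0.23, SE 0.03, edgeR adjusted p = 2.15e-10), in 19 of 20 strains. Zfp950 averaged 6.55 ± 1.52 CPM in females and 5.74 ± 1.49 CPM in males (log2 -0.19, edgeR adjusted p = 4.69e-09), Zfp964 1.26 ± 0.347 and 1.11 ± 0.347 CPM (-0.17, adjusted p = 1.07e-05), and Zfp961 2.16 ± 0.510 and 1.98 ± 0.509 CPM (-0.14, adjusted p = 3.99e-05). Zfp945 was also lower in males (-0.07, edgeR adjusted p = 0.00196), as was Zfp943 (-0.06, adjusted p = 0.00478).

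Among the members higher in males, the pseudogene Zfp939 averaged 1.98 ± 0.412 CPM in females and 2.20 ± 0.477 CPM in males (log2 0.14, SE 0.03, edgeR adjusted p = 8.76e-07) and was higher in 18 of 20 strains. Zfp938 (0.12, edgeR adjusted p = 1.26e-07), Zfp946 (0.11, adjusted p = 2.31e-06), Zfp954 (0.10, adjusted p = 0.000245) and Zfp956 (0.08, adjusted p = 0.00577) followed. Within the chromosome 17 cluster, directions therefore differed: Zfp948, Zfp945 and Zfp943 were lower in males, Zfp946 was higher, and Zfp942, Zfp947 and Zfp944 did not pass. In the upper identifier range no member passed for sex by edgeR, with 2 at an unadjusted p under 0.05.

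**Figure D5:**
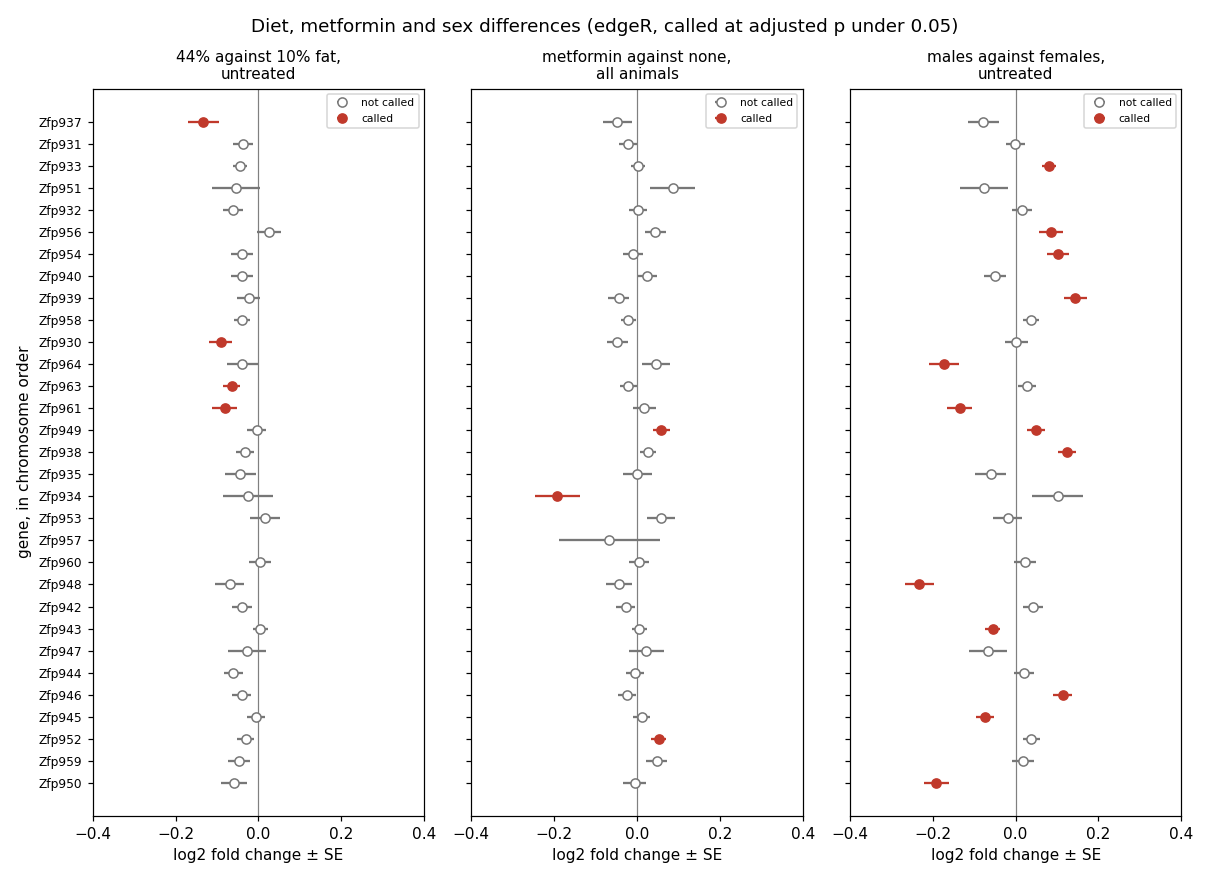
Log2 fold change ± SE (horizontal axis) of each gene, in chromosome order, for 44% against 10% fat in untreated animals, for metformin against none in all animals and for males against females in untreated animals; filled circles passed at an adjusted p under 0.05, and Zfp957 was tested for metformin alone. The 4 diet calls lie below 0, 3 members were called for metformin, and sex calls lie on both sides of 0.

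Whether an effect depended on another factor was tested by interaction terms, and no member passed. For diet by strain 0 of 30 passed with edgeR, 3 had an unadjusted p under 0.05 there, limma voom called 0 as well, and 3.27% of all genes passed. Zfp956 came nearest, with an adjusted p of 0.0592 by edgeR and 0.22 by limma voom. For diet by sex 0 of 30 passed with edgeR and limma voom (2 at an unadjusted p under 0.05 with edgeR, and 0.226% of all genes passed). For metformin by strain 0 of 31 passed with both tools (4 at an unadjusted p under 0.05 with edgeR), where 8.89% of all genes passed, and Zfp964 came nearest with an adjusted p of 0.07 by edgeR. For metformin by diet 0 of 31 passed with both tools (1 at an unadjusted p under 0.05 with edgeR, and 0.00564% of all genes passed). These tests do not show that the effects were equal.

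A list of 25 genes whose proteins act with KRAB zinc finger proteins in repression, or that belong to linked chromatin complexes, was examined beside the members. All 25 were tested. For diet 3 passed, or 12% of the list against 18.4% of all genes: Chd4, a helicase of the NuRD complex, was higher on 44% fat (log2 0.04, edgeR adjusted p = 0.00743), and Cbx1, which encodes the heterochromatin protein HP1 beta (-0.04, adjusted p = 0.00111), and Dnmt1, the maintenance DNA methyltransferase (-0.06, adjusted p = 0.0317), were lower. For metformin 4 passed, or 16% against 16.2% of all genes, so both counts are at or below the background: Atf7ip, the partner of SETDB1 (0.07, adjusted p = 0.000258), Zfp445, an imprinting regulator (0.06, adjusted p = 0.0166), and Chd4 (0.04, adjusted p = 0.00486) were higher, and Uhrf1, which guides DNMT1 to newly replicated DNA, was lower (-0.47, SE 0.10, adjusted p = 8.18e-05) at a level of 0.367 ± 0.367 CPM. Trim28 stood at 35.3 ± 3.01 CPM in untreated animals, and neither diet (-0.01, adjusted p = 0.486) nor metformin (-0.01, adjusted p = 0.713) passed. Setdb1 stood at 14.3 ± 2.64 CPM and passed for neither (diet -0.008, adjusted p = 0.776, metformin 0.02, adjusted p = 0.323). The strain shares were 19.5% for Trim28 and 68.99% for Setdb1, with a median of 14.9% over the list.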

How the data were processed

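Gastrocnemius RNA from 352 female and 351 male mice was sequenced as polyadenylated libraries with read pairs of 100 bp and a target of 30M pairs. The authors aligned both mates as single reads to the pooled transcriptomes of 8 founders, divided reads that match several places by expectation maximisation, and kept genes with a read in most samples (in the deposited table, every gene is above 0 in at least 50.07% of libraries). The deposited table of estimated counts per gene was rounded to whole numbers and used for every test. The deposited variance-stabilised values, on a log2 scale, were used for an alternative. The submitters' processing notes name build GRCm38, and positions in the deposited annotation are in Mb.

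Tests used edgeR 4.0.16 quasi-likelihood fits with TMM scaling and its expression filter in R 4.3.3, over all genes, with terms for strain, sex, diet, identifier range and, over all animals, treatment. Interaction tests added the product terms. Calls needed a Benjamini-Hochberg adjusted p under 0.05. Shares of variance were omega-squared of log2 CPM with a prior count of 2. The scripts were tested on simulated data. Sets of animals were taken from the labels, and libraries are separate animals. DESeq2 1.42.0, limma 3.58.1 (voom, and on the variance-stabilised values), RLE scaling, other filters, subsets of libraries and marker levels as covariates were tried as alternatives. Sequences came from GENCODE M21 and RefSeq tables. Depth ran from 27.4M to 96.1M assigned reads, and counting error is large below 1 CPM.

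The rule for members uses names alone, but this range of names and the gene lists were chosen with earlier results of these data known. Genes named were the 10 members with the largest and the 3 with the smallest strain share, members called for diet, metformin or sex (at most 5 in each direction), the top interaction values, clustered members and extreme neighbouring pairs, members at the extremes of level or failing the filter, Trim28, Setdb1 and list genes called for diet or metformin. Other names, such as Zfp943 for sex, Zfp950 and Zfp959 for strain share and the genes sharing stretches, were chosen after their values were seen.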

Additional observations from a re-analysis of the deposited data

How the results depend on the processing

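No paired analysis was possible because every label carries the same replicate number, so numbers link no animals across groups. The number of members called moved by over 1.5 times under these settings. For diet (4 called) it was 7 with a filter at a mean of 1 CPM, 2 in the lower and 0 in the upper identifier range, and 1 in treated animals. For strain (29) it was 18 in the upper range. For sex (13) it was 0 in the upper range. For metformin (3) it was 5 in the lower and 0 in the upper range, and 1 with marker levels as covariates, an alternative added after seeing the data. The upper range has fewer animals, and other causes were not tested. Adding the genes that carry such a symbol in GENCODE M21 alone, also chosen after seeing the data, gave 50 calls for strain, 22 for sex and 6 for metformin, from more genes tested.

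The median strain share of 18.7% was 24.3% in treated animals, 25.1% in males, 22.8% in the upper range and 27.8% with the GENCODE symbols added. The median r of neighbouring members, 0.35, was 0.60 for starts within 0.2 Mb. It was also 0.22 in females alone, where 7 of the 24 pairs were below 0, and 0.32 in males alone, both computed after seeing the data. The number of clusters stayed at 3 with distances of 0.2 and 5 Mb, but the members in them changed from 12 to 9 and 15. At 0.2 Mb, Zfp930, Zfp948 and Zfp945 were in no cluster. Among the recomputed values of named members none changed sign, 341 kept their side of the threshold, 31 lost their call (12 for diet, 5 for metformin, 11 for sex and 3 for strain) and 1 gained one.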

Other observations

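The symbols in the deposited table are older than those of GENCODE M21. By gene identifier, 24 further genes of the table carry a symbol between Zfp900 and Zfp999 in that annotation, and they were examined after the data had been seen. They lay on chromosomes 4 (10 genes), 2 (7), 7 (4) and 17 (3). Of these, 21 passed the filter in untreated animals, and their median strain share was 47.1%, from 8.57% to 73.99%, with 10 of them over 50%. Gm13152 (Zfp982 in M21) had the largest share, 73.99%, with strain means from 0.036 to 1.75 CPM. Gm14306 (Zfp973), at 71.5%, had strain means from 0.722 to 10.9 CPM, and Gm8898 (Zfp966), at 71.1%, from 2.62 to 13.3 CPM. Gm14420 (Zfp970) was the most abundant at 20.3 ± 3.59 CPM (SD over the untreated animals), with a share of 56.1%. It was the 1 gene of these called for diet, lower on 44% fat by 0.05 on the log2 scale (SE 0.01, edgeR adjusted p = 0.015). Genes on these parts of chromosomes 2 and 4 are known for near-identical copies, and how the division of shared reads bears on their values was not tested.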
